A study of Mus musculus with 12 samples.

Results

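Most of the genes described here build ribosomes or act in the nucleolus, some are metabolic enzymes, and many are counted among the targets of Myc. They were taken by name from a list of 42, and 41 of them stood in all 3 deposited tables, out of 22339 gene symbols that the tables shared. Noc2l was not analysed here. The 41 genes fall by role into the box C/D and box H/ACA RNA-protein particles that modify ribosomal RNA, RNA polymerase I, the assembly of the small and of the large ribosomal subunit, nucleolar proteins of several roles, and metabolic enzymes.

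The study measured RNA by sequencing in cultured C57BL/6 mouse bone marrow cells that carried a leukaemia fusion oncogene with PRDM16 or with PRDM16mut, a changed form whose change the labels do not give. PRDM16 carries zinc fingers and a PR domain, and the series title calls it a histone methyltransferase. Of the 6 groups of 2 libraries each, the first pair was Lin- (lineage-negative) bone marrow cells cotransduced with MLL-AF9 and PRDM16, or with MLL-AF9 and PRDM16mut. The next pair was Lin- bone marrow cells cotransduced with E2A-HLF and PRDM16, or with E2A-HLF and PRDM16mut. The last pair was bone marrow cells that had already been transduced with MLL-AF9 and then received PRDM16 or PRDM16mut, called the MLL-AF9 stable cells. Both fusions join parts of transcription regulators and occur in human leukaemias. All groups grew in 15% serum with the cytokines SCF, IL6 and IL3, 10 ng/ml of each, and were collected after 10 days of selection. The cotransduced cells were selected with puromycin plus G418, the stable cells with puromycin only. Every group carried a fusion oncogene and 1 form of PRDM16, so no group shows the level without either form. Whether the replicates came from separate cultures is not said in the labels, so p-values speak for the spread among these libraries alone, and that spread may be technical.

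Ribosomes are made in the nucleolus. RNA polymerase I transcribes the long precursor of ribosomal RNA, small nucleolar RNAs guide its chemical modification, and a large set of assembly factors cuts, folds and exports the subunits. Myc activates many of these genes together with enzymes of polyamine and pyrimidine synthesis, and growing blood progenitors and leukaemia cells express them strongly.

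Values are FPKM, the authors' fragments per transcript scaled to its length and to the mapped fragments of the library. Summed FPKM per library ran between 570872 and 683269, read counts were not given, and the total depth is therefore unknown. By the steps between low values, replicate 2 was 1.63 times as deep as replicate 1 among MLL-AF9 cotransduced cells with PRDM16, and 0.921 to 1.18 times as deep in the other groups. Prdm16 itself had 83.9 and 119 FPKM with PRDM16 against 29.5 and 30.1 FPKM with PRDM16mut in the MLL-AF9 cotransduction, 49.2 and 56.6 against 56.6 and 43.5 FPKM in the E2A-HLF cotransduction, and 77.9 and 80.0 against 89.1 and 94.6 FPKM in the stable cells, where these values do not separate the mouse gene from the introduced ones. Ptprc, which marks blood cells, lay between 43.5 and 61.3 FPKM in the 12 libraries. In the MLL-AF9 cotransduction all 3 measured genes of the general blood list fell, with Kit, a receptor of progenitors, at 5.29 and 6.07 FPKM with PRDM16 against 46.8 and 47.5 FPKM with PRDM16mut, Cd34 at 5.38 and 4.59 against 20.8 and 21.1 FPKM, and the sum at 56.6 and 54.1 against 119 and 120.1 FPKM. Of these 3, only Cd34 fell with E2A-HLF and none was called in the stable cells. The part of this in the values below was not tested. No marker of B cells, T cells or stromal cells passed the filter on low values in any table.

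Promoters of 3 of the genes are shown because the first pair were called in all 3 experiments, lower, higher and lower with PRDM16, and the last had the largest change of the set. Each is the 300-base window around the gene's start from RefSeq on GRCm38.p6, printed along the gene's strand and in lower case. Capitals mark CACGTG, the E-box that Myc and its partner Max bind, or the variant CACGCG, here as its reverse complement CGCGTG. The windows are Utp20 at chr10:88826765-88827064 on the minus strand, Tsr1 at chr11:74897830-74898129 on the plus strand and Polr1e at chr4:45018359-45018658 on the plus strand.
Utp20: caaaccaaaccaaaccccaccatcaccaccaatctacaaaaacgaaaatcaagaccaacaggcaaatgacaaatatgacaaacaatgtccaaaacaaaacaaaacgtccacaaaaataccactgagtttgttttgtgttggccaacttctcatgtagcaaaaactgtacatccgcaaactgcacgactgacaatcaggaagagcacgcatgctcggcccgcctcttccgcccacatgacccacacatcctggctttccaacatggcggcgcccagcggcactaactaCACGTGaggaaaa
Tsr1: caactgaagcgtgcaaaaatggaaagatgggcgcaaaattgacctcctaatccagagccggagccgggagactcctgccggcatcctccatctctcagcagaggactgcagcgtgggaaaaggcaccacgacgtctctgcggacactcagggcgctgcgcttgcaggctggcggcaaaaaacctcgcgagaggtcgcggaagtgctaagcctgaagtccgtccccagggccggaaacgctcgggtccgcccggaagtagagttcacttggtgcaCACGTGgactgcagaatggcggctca
Polr1e: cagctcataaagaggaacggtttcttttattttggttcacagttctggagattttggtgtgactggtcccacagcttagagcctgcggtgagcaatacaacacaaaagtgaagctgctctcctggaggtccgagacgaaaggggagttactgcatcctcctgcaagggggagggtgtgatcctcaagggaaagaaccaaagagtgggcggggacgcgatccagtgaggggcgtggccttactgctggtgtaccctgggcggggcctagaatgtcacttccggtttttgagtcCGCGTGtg

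Of the 41 genes, 35 had such a window. Rrp12, called in the same order as Utp20 and Tsr1, was among the genes without one, so its promoter was not examined. The letters CACGTG, which read the same on both strands, stood in 6 of the 35 windows (17.1%), those of Nop2, Utp20, Pes1, Mybbp1a, Tsr1 and Wdr43, and in 2187 of the 27025 genes with a window (8.09%). CACGCG stood on either strand in 13 of the 35 (37.1%) and in 2835 of all genes (10.5%), and no base can belong to both motifs. Mybbp1a and Pes1 held both. These matches describe letters in a window and show no binding.

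In the E2A-HLF cotransduction the ribosome biogenesis genes that passed the test were higher with PRDM16, with 1 exception. Of the 41, 18 rose, 1 fell and 22 did not pass the test. A positive log2 fold change was seen in 5739 of all 11010 genes tested, and in 36 of the 41. The median log2 fold change was 0.13, against 0.01 over all genes tested. The rises were small, up to 0.62 on the log2(FPKM + 1) scale for Srm, the spermidine synthase of polyamine synthesis. Among all 11010 genes tested 43.8% were called in either direction, 22.7% higher and 21.1% lower, at an adjusted p under 0.05 from limma with Benjamini-Hochberg adjustment. PRDM16 and PRDM16mut libraries did not overlap for 37 of the 41 genes, while they did not overlap for 73.7% of all genes tested. The summed FPKM of the 41 genes was 4737 and 4593 with PRDM16, against 4224 and 4321 with PRDM16mut. The only gene that fell, Polr1c, lost its call without any 1 of the 4 libraries, and without 1 library the number of genes that rose lay between 12 and 16, its lower end without either PRDM16 replicate 1 or PRDM16 replicate 2. Without the filter on low values 9 rose.

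In the MLL-AF9 stable cells the genes of the set that passed the test were lower with PRDM16. Of the 41 genes 17 fell, none rose and 24 did not pass limma's test. A negative log2 fold change was seen in 4662 of all 10580 genes tested, and in 39 of the 41. At an unadjusted p under 0.05 from limma, 1 was higher and 27 were lower, and the share of all genes at that threshold is not given here. The median log2 fold change was -0.13, against 0.01 over all genes tested, and the largest fall was 0.32 for Cad, the enzyme that opens pyrimidine synthesis. Calls were rarer here, with 6.36% of the 10580 genes tested called, 2.16% lower and 4.20% higher. The libraries did not overlap for 35 of the 41 genes and for 60.6% of all genes. The summed FPKM was 4004 and 3950 with PRDM16, against 4158 and 4240 with PRDM16mut. No gene of the set was called without PRDM16 replicate 1 or without PRDM16 replicate 2, and 4 and 3 fell without PRDM16mut replicate 1 and replicate 2. In these smaller fits 82, 67, 178 and 219 genes were called in the whole table, against 673 with all libraries, while 38, 38, 39 and 37 of the 41 genes had a negative log2 fold change. With all libraries, limma called 0 lower without the filter on low values, 4 with no variance trend and 8 with a spread shared over the 12 libraries.

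The MLL-AF9 cotransduction had no common direction. Of the 41 genes 14 rose, 10 fell and 17 did not pass the test, and the median log2 fold change was 0.03, against 0.01 over all genes. The largest rises belonged to Polr1e and Polr1c, subunits of RNA polymerase I, at 0.79 and 0.65, and the largest fall was 0.41 for Rrp12, a factor for export of the subunits in yeast. Calls were frequent throughout this table, with 69.5% of the 11071 genes tested called, 35.6% higher and 34.0% lower, and 86.3% of all genes had groups without overlap, as had 33 of the 41. The summed FPKM was 3396 and 3280 with PRDM16, against 3128 and 3124 with PRDM16mut, which was 0.497% and 0.488% of all FPKM with PRDM16 and 0.496% and 0.502% with PRDM16mut. Without PRDM16mut replicate 1 the test called 8 higher and 3 lower, without PRDM16mut replicate 2 it called 7 and 1, and without PRDM16 replicate 2 it called 17 and 17. With the trend of fold change on transcript length and GC content removed it called 15 and 14, and without the filter on low values 12 and 4.

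**Figure D1:**
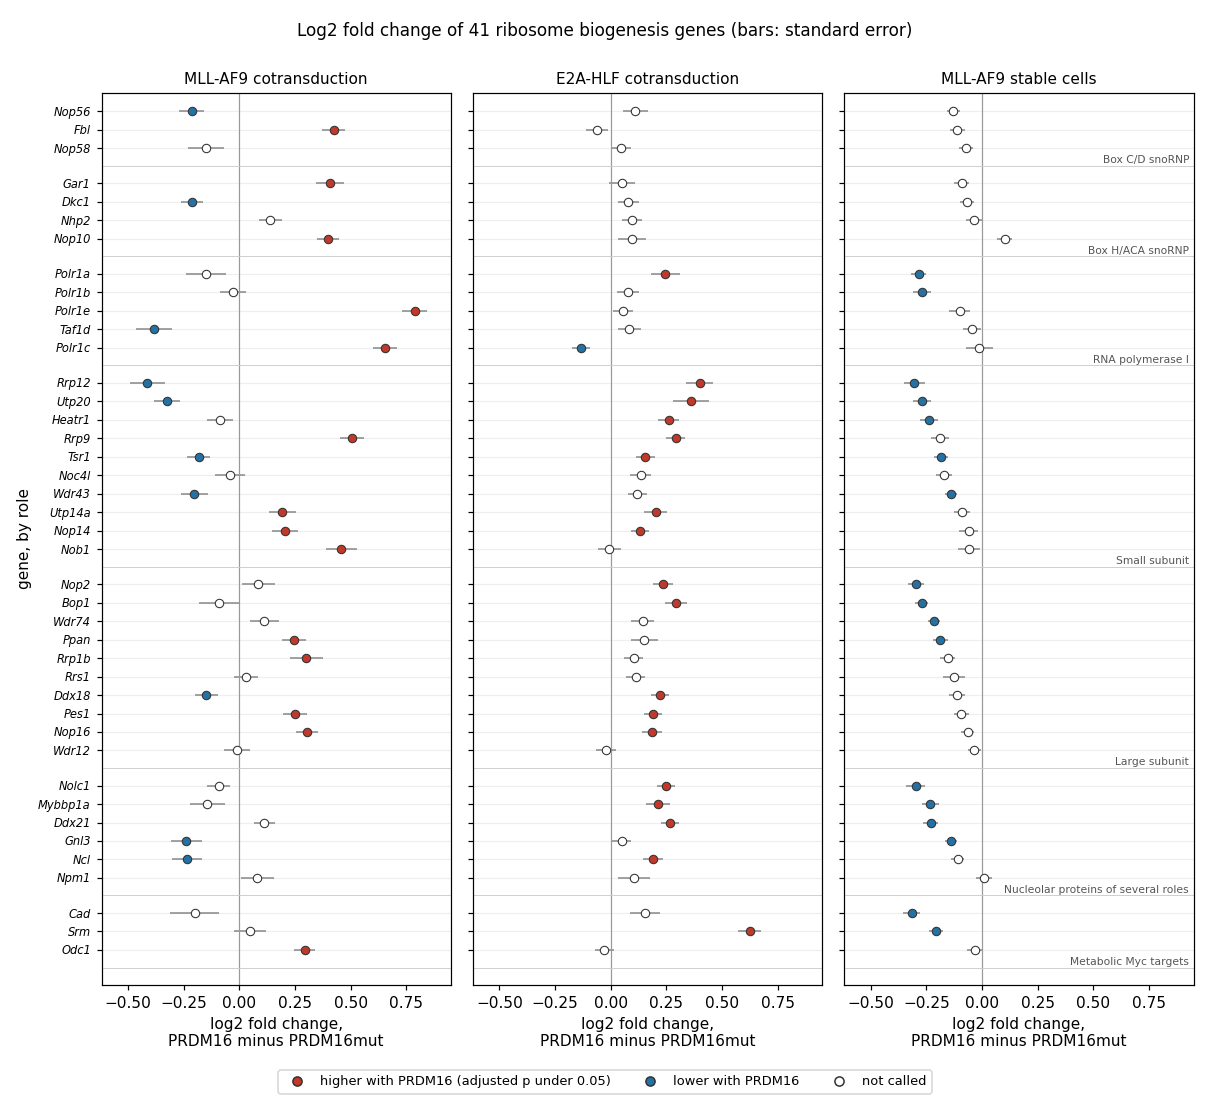
Log2 fold change (x axis) of each of the 41 genes, PRDM16 minus PRDM16mut, in the 3 experiments (panels), with genes down the page by role, bars for 1 SE and filled points for calls at an adjusted p under 0.05, red for higher and blue for lower with PRDM16. The E2A-HLF points lie mostly right of 0, those of the stable cells mostly left of 0, and those of the MLL-AF9 cotransduction spread to both sides, with Polr1e at 0.79 and Rrp12 at -0.41.

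**Figure D2:**
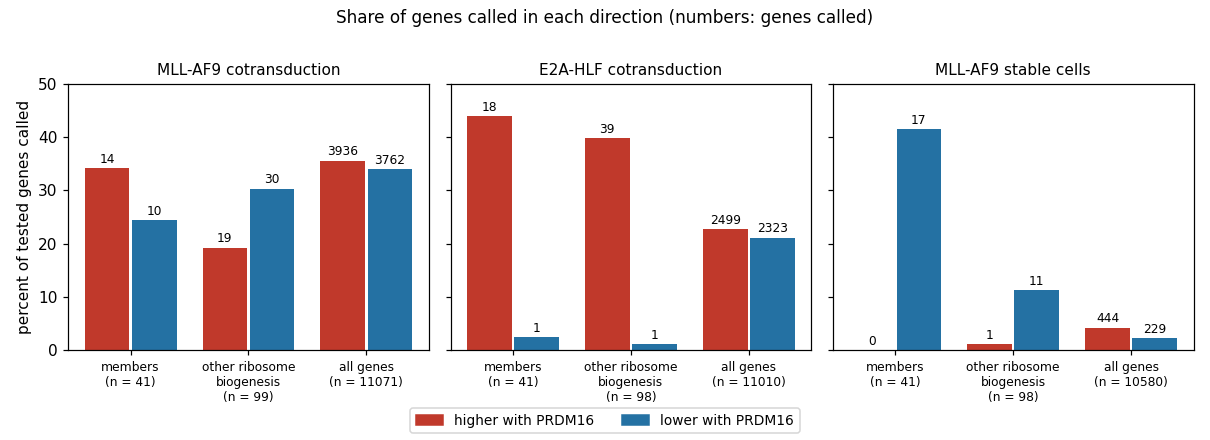
Share of genes called higher (red) or lower (blue) with PRDM16 in each experiment, in percent of genes tested, for the 41 genes (members), a list of other ribosome biogenesis genes and all genes of the same table, with the number called above each bar. In the E2A-HLF cotransduction 18 of 41 were higher against 22.7% of all genes, in the stable cells 17 of 41 were lower against 2.16%, and in the MLL-AF9 cotransduction both shares lay close to or under those of all genes.

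The box C/D particle places methyl groups on ribosomal RNA, and its core proteins Fbl, Nop56 and Nop58 were tested in every table. Fbl, the methyltransferase, had 232 and 236 FPKM with PRDM16 against 178 and 170 FPKM with PRDM16mut in the MLL-AF9 cotransduction. The groups did not overlap, and the log2 fold change was 0.42 (SE 0.0513, limma, adjusted p 0.00106). With the length and GC trend removed it was 0.12 and no longer passed (adjusted p 0.0667). Nop56, a scaffold of the same particle, fell there, with 99.2 ± 4.25 FPKM against 115 ± 3.04 FPKM (SD, n = 2 each). With E2A-HLF, Fbl had 215 and 215 FPKM with PRDM16 against 219 and 231 FPKM with PRDM16mut, and in the stable cells 179 and 171 FPKM against 188 and 190.2 FPKM. None of the 3 genes passed the test in the E2A-HLF cotransduction or in the stable cells.

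The box H/ACA particle turns uridines of ribosomal RNA into pseudouridines and also stabilises telomerase RNA. Of its 4 proteins, Nop10 and Gar1 rose in the MLL-AF9 cotransduction, Dkc1, the pseudouridine synthase, fell, and Nhp2 did not pass. Nop10 had 193 and 187 FPKM with PRDM16 against 145 and 142 FPKM with PRDM16mut, a log2 fold change of 0.40 (SE 0.0485, limma, adjusted p 0.00108). Its groups were apart there. Dkc1 averaged 49.5 ± 1.30 FPKM with PRDM16 and 57.5 ± 0.269 FPKM with PRDM16mut (SD, n = 2 each), so proteins of 1 particle were called in both directions. Nop10 was among the 3 most abundant of the 41 genes, at 310.0 and 305 FPKM with PRDM16 against 274 and 303 FPKM with PRDM16mut in the E2A-HLF cotransduction, and at 233 and 232 against 212 and 221 FPKM in the stable cells. No H/ACA gene was called in those 2 experiments, and their log2 fold changes ran from 0.05 to 0.09 in the E2A-HLF cotransduction and from -0.09 to 0.10 in the stable cells.

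Among the 5 genes of RNA polymerase I, the MLL-AF9 cotransduction gave the largest changes of the whole set. Polr1e, which encodes a subunit particular to polymerase I, had 14.0 and 14.0 FPKM with PRDM16 against 7.80 and 7.59 FPKM with PRDM16mut, and its log2 fold change was 0.79 (SE 0.0555, limma, adjusted p 1.51e-04). The E2A-HLF cotransduction had 12.1 and 12.1 FPKM against 11.7 and 11.5 FPKM, and in the stable cells 6.84 and 6.40 FPKM against 7.08 and 7.24 FPKM. Those 2 differences did not pass the test, and Polr1e was among the 3 least abundant of the 41 genes.

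Polr1c, a subunit shared by polymerases I and III, had 54.0 and 55.4 FPKM with PRDM16 against 33.8 and 35.1 FPKM with PRDM16mut in the MLL-AF9 cotransduction, a log2 fold change of 0.65 (SE 0.0527, limma, adjusted p 2.39e-04). With E2A-HLF it had 44.4 and 43.7 FPKM against 48.8 and 48.0 FPKM, and it fell by 0.13 (limma, adjusted p 0.0408). Among stable cells it had 34.5 and 33.3 FPKM against 32.2 and 36.2 FPKM, with overlapping groups. Polr1a, the largest subunit, followed another order. It had 9.87 and 11.8 FPKM with PRDM16 against 11.99 and 12.2 FPKM with PRDM16mut in the MLL-AF9 cotransduction, 16.7 and 17.8 against 15.2 and 13.7 FPKM in the E2A-HLF cotransduction, and 12.8 and 12.5 against 15.6 and 15.6 FPKM in the stable cells. Polr1a was called higher in the E2A-HLF cotransduction, where the call was lost without replicate 2 of PRDM16 or of PRDM16mut. It was called lower in the stable cells, where the call was lost without any 1 of the 4 libraries.

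Taf1d, a subunit of the factor that brings polymerase I to its promoter, had 22.5 and 19.5 FPKM with PRDM16 against 27.1 and 28.2 FPKM with PRDM16mut in the MLL-AF9 cotransduction and fell by 0.38 (limma, adjusted p 0.00891, and 0.0597 without PRDM16mut replicate 2). It did not pass elsewhere, at 62.3 and 57.8 against 57.1 and 56.0 FPKM in the E2A-HLF cotransduction and 48.4 and 51.7 against 51.2 and 52.1 FPKM in the stable cells. Rn45s, the entry for the ribosomal RNA precursor that polymerase I makes, is no member of the set and was read after oligo(dT) priming. It was listed at 0 and 0 FPKM with PRDM16 against 1542 and 1554 FPKM with PRDM16mut in the MLL-AF9 cotransduction. Whether those 0 values mean absent RNA or an entry that was left without a value cannot be told from the FPKM. With E2A-HLF Rn45s had 1170.0 and 999.8 FPKM against 943 and 941 FPKM, and in the stable cells 1359 and 1158 against 955 and 1451 FPKM, neither of which passed the test.

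Of the 10 factors of the small subunit, 4 rose and 4 fell in the MLL-AF9 cotransduction. In the E2A-HLF cotransduction 7 rose, and in the stable cells 5 fell. Over all genes tested 35.6% rose and 34.0% fell in the first, 22.7% rose in the second and 2.16% fell in the third experiment. The MLL-AF9 counts are near these shares. Rrp12 moved in all 3. It had 10.1 and 11.6 FPKM with PRDM16 against 14.6 and 14.8 FPKM with PRDM16mut in the MLL-AF9 cotransduction, 12.1 and 12.5 against 9.52 and 8.66 FPKM in the E2A-HLF cotransduction, and 15.2 and 14.0 against 18.0 and 18.5 FPKM in the stable cells. The groups were apart each time, with log2 fold changes of -0.41, 0.40 and -0.30 (SE 0.0778, 0.0601 and 0.0473, limma, adjusted p 0.00565, 0.00321 and 0.0316). Without 1 library the value in the stable cells lay between -0.36 and -0.25, and the call there was lost without any 1 of the 4 libraries.

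Utp20, a large scaffold of the processome that cuts the precursor of the small subunit RNA, had the same order of calls. It had 7.62 and 7.81 FPKM with PRDM16 against 9.68 and 10.2 FPKM with PRDM16mut in the MLL-AF9 cotransduction, 9.81 and 11.3 against 8.32 and 7.66 FPKM in the E2A-HLF cotransduction, and 11.5 and 11.5 against 13.6 and 14.4 FPKM in the stable cells. Its log2 fold changes were -0.33, 0.36 and -0.27 (limma, adjusted p 0.00506, 0.0141 and 0.0297). In the stable cells the value lay between -0.31 and -0.23 without 1 library, and the call was lost without any 1 of the 4 libraries. In the MLL-AF9 cotransduction the value was -0.01 with the length and GC trend removed, and the call was lost, as it was without PRDM16mut replicate 2 (limma, adjusted p 0.0743). Tsr1, a late factor of the same subunit, was the only other gene called in all 3, with log2 fold changes of -0.18, 0.15 and -0.19.

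Rrp9 binds the U3 small nucleolar RNA. In the MLL-AF9 cotransduction it had 45.0 and 46.5 FPKM with PRDM16 against 32.4 and 31.5 FPKM with PRDM16mut, a log2 fold change of 0.51 (SE 0.0528, limma, adjusted p 6.06e-04) that was 0.16 with the length and GC trend removed (adjusted p 0.0523). It rose with E2A-HLF as well, with 36.4 and 35.1 FPKM against 29.1 and 29.0 FPKM (log2 fold change 0.29). The stable cells had 32.4 and 32.0 FPKM against 35.5 and 38.2 FPKM, with an adjusted p of 0.0600 from limma. Nob1, the nuclease that makes the final cut of the small subunit RNA, had 43.4 and 48.6 FPKM with PRDM16 against 33.0 and 33.4 FPKM with PRDM16mut in the MLL-AF9 cotransduction (log2 fold change 0.46, limma, adjusted p 0.00253). It did not pass in the E2A-HLF cotransduction, at 51.3 and 47.9 against 48.7 and 50.9 FPKM, or in the stable cells, at 41.1 and 38.4 against 40.1 and 42.8 FPKM.

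The other 6 small subunit factors were Nop14, Utp14a, Heatr1, Wdr43, Noc4l and Tsr1. Nop14 and Utp14a rose in both cotransductions, by 0.20 and 0.19 with MLL-AF9 and by 0.13 and 0.20 with E2A-HLF. Heatr1, a processome component, rose by 0.26 in the E2A-HLF cotransduction and fell by 0.24 in the stable cells. Wdr43 fell by 0.20 in the MLL-AF9 cotransduction and fell by 0.14 in the stable cells, and Noc4l did not pass anywhere.

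**Figure D3:**
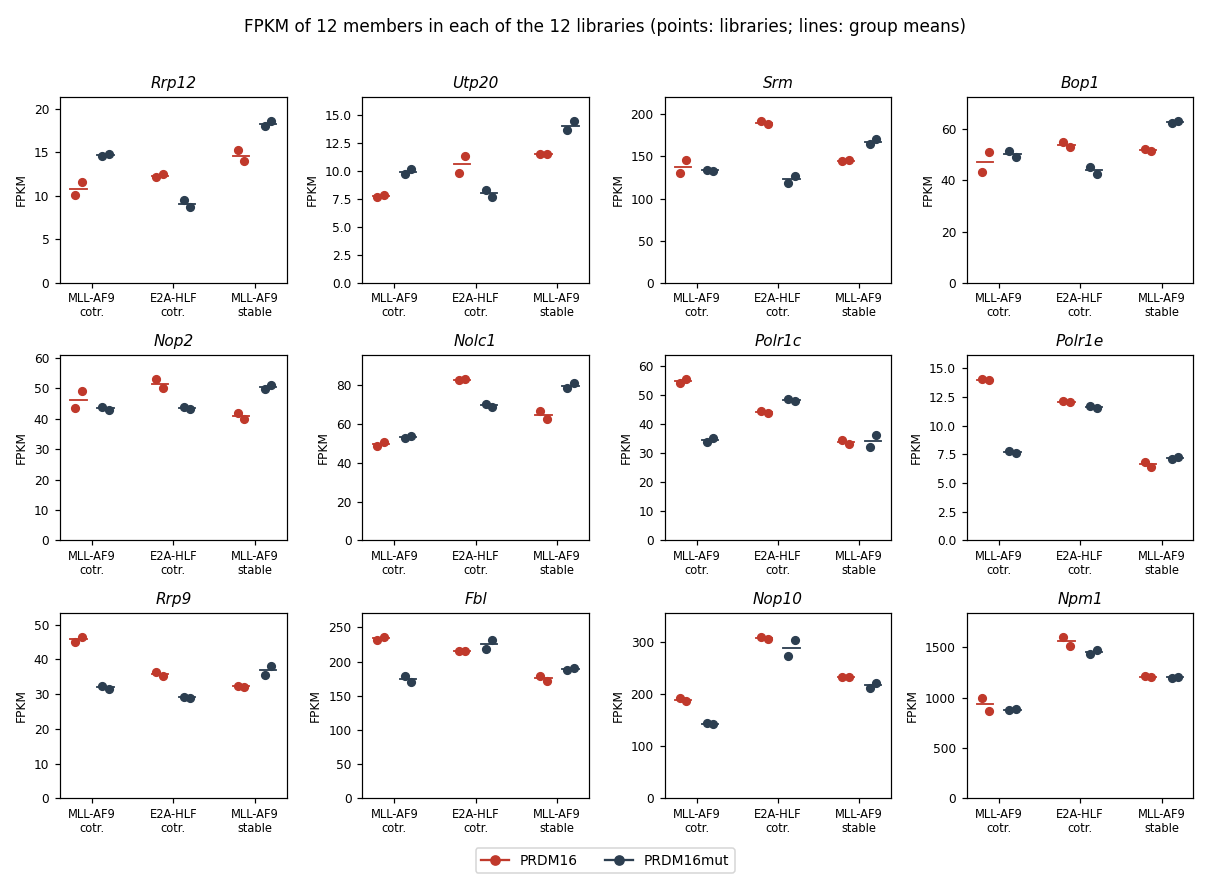
FPKM of 12 of the genes in each of the 12 libraries, with PRDM16 left of PRDM16mut in each experiment, 1 point per library and a line at the group mean. Rrp12 and Utp20 are lower, higher and lower with PRDM16 in the MLL-AF9 cotransduction, with E2A-HLF and among the stable cells, while Polr1e was called only in the first, where both PRDM16 libraries stand at 14.0.

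Of the 10 measured factors of the large subunit, 4 rose and 1 fell in the MLL-AF9 cotransduction, against 35.6% and 34.0% of all genes tested. In the E2A-HLF cotransduction 5 rose, against 22.7% of all genes, and in the stable cells 4 fell, against 2.16%. Bop1, Pes1 and Wdr12 form the complex that processes the RNA of the large subunit. Bop1 had 55.0 and 53.1 FPKM with PRDM16 against 45.1 and 42.7 FPKM with PRDM16mut in the E2A-HLF cotransduction (log2 fold change 0.29, limma, adjusted p 0.00435). The stable cells had 52.5 and 51.3 FPKM against 62.6 and 63.1 FPKM (log2 fold change -0.27, limma, adjusted p 0.0145). The MLL-AF9 cotransduction showed 43.3 and 51.2 FPKM against 51.4 and 49.1 FPKM, with PRDM16 replicate 1 below the rest.

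Its partner Pes1 rose in both cotransductions, at 63.5 ± 2.15 against 53.3 ± 1.56 FPKM with MLL-AF9 and at 60.2 ± 1.44 against 52.7 ± 0.0699 FPKM with E2A-HLF (SD, n = 2 each). Wdr12 did not pass in any of the 3 experiments, with log2 fold changes of -0.01, -0.02 and -0.03. Nop2, which methylates the RNA of the large subunit, had 43.4 and 49.1 FPKM with PRDM16 against 44.0 and 43.0 FPKM with PRDM16mut in the MLL-AF9 cotransduction. It had 53.0 and 49.9 against 43.9 and 43.3 FPKM in the E2A-HLF cotransduction, and 41.8 and 39.8 against 49.6 and 51.2 FPKM in the stable cells. It passed the test in opposite directions in these last 2 experiments (log2 fold changes 0.23 and -0.30). The call in the E2A-HLF cotransduction was lost without PRDM16 replicate 1. With each of the 4 libraries of the stable cells left out in turn, the call there was lost 3 times.

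The remaining large subunit factors moved by at most 0.30. Nop16 rose in both cotransductions, by 0.30 and 0.19. Rrp1b rose in the MLL-AF9 cotransduction by 0.30 and was called nowhere else. Ppan rose there by 0.24 and fell by 0.19 in the stable cells. Ddx18, an RNA helicase, fell by 0.15 in the MLL-AF9 cotransduction and rose by 0.22 in the E2A-HLF cotransduction. Wdr74 fell by 0.22 in the stable cells, and Rrs1 passed in no experiment.

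Of the 6 nucleolar proteins of several roles, 2 were lower in the MLL-AF9 cotransduction, near the share of all genes tested (34.0%). In the E2A-HLF cotransduction 4 were higher, against 22.7% of all genes, and in the stable cells 4 were lower, against 2.16%. Npm1, the nucleolar chaperone nucleophosmin, was the most abundant of the 41 genes and was not called. It had 997 and 869 FPKM with PRDM16 against 877 and 883 FPKM with PRDM16mut in the MLL-AF9 cotransduction, 1604 and 1518 against 1433 and 1470.3 FPKM in the E2A-HLF cotransduction, and 1211 and 1208 against 1194 and 1207 FPKM in the stable cells. Reads of Npm1 may be shared with its processed copies in the genome, and how they were counted is not stated in the labels.

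Nolc1, a chaperone of small nucleolar particles, had 82.5 and 83.0 FPKM with PRDM16 against 70.3 and 68.8 FPKM with PRDM16mut in the E2A-HLF cotransduction (log2 fold change 0.25, limma, adjusted p 0.00451). Stable cells had 66.8 and 62.2 FPKM against 78.3 and 80.8 FPKM (log2 fold change -0.30, limma, adjusted p 0.0283). That call was lost without any 1 of the 4 libraries. In the MLL-AF9 cotransduction Nolc1 had 48.8 and 50.6 FPKM against 52.7 and 53.6 FPKM, which did not pass. Ddx21, a helicase of the nucleolus, and Mybbp1a had the same calls, at 0.26 and 0.21 in the E2A-HLF cotransduction and -0.23 each in the stable cells. Gnl3, nucleostemin, had 46.8 and 41.9 FPKM with PRDM16 against 51.7 and 53.3 FPKM with PRDM16mut in the MLL-AF9 cotransduction and fell by 0.24, a call lost without PRDM16mut replicate 1 (adjusted p 0.131) or replicate 2 (adjusted p 0.201, limma). It also fell in the stable cells, at 63.4 and 64.0 against 70.3 and 70.02 FPKM, a call lost without any 1 of the 4 libraries. Gnl3 did not pass in the E2A-HLF cotransduction, at 84.4 and 84.1 against 79.5 and 83.4 FPKM. Ncl, nucleolin, fell by 0.24 in the MLL-AF9 cotransduction and rose by 0.19 in the E2A-HLF cotransduction.

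Srm, Odc1 and Cad are the metabolic enzymes of the set. Srm had 192 and 189 FPKM with PRDM16 against 119 and 127 FPKM with PRDM16mut in the E2A-HLF cotransduction, a mean of 190.1 ± 2.19 against 123 ± 5.99 FPKM (SD, n = 2 each). The log2 fold change of 0.62 (SE 0.0512, limma, adjusted p 2.75e-04) was the largest of the 41 genes in that experiment. It fell by 0.21 in the stable cells, at 144 and 146 FPKM with PRDM16 against 165 and 170.3 FPKM with PRDM16mut. The MLL-AF9 cotransduction had 129.7 and 146 FPKM against 133 and 133 FPKM, where the groups overlapped, and there the value of 0.05 was -0.34 with the length and GC trend removed (limma, adjusted p 3.23e-04).

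Odc1, the first enzyme of polyamine synthesis, rose in the MLL-AF9 cotransduction, with 161 ± 0.211 against 131 ± 2.17 FPKM (SD, n = 2 each), and did not pass elsewhere. Cad had 20.6 and 20.4 FPKM with PRDM16 against 25.0 and 26.6 FPKM with PRDM16mut in the stable cells, a log2 fold change of -0.32 (SE 0.0394, limma, adjusted p 0.0205). It had 14.2 and 17.9 against 18.3 and 18.7 FPKM in the MLL-AF9 cotransduction and 30.5 and 31.9 against 29.7 and 26.2 FPKM in the E2A-HLF cotransduction, neither of which passed.

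Across the 3 experiments, 15 of the 41 genes were called in opposite directions in at least 1 pair, and no gene was called in the same direction in all 3. The experiments shared no libraries. Opposite signs and shared or opposite calls were counted for the 41 genes only, so how common they were over all genes is not known. With the E2A-HLF cotransduction set against the stable cells, 34 of the 41 genes had log2 fold changes of opposite sign, and the 11 genes called in both were all higher in the E2A-HLF cotransduction and lower in the stable cells. Utp20, Rrp12, Tsr1, Polr1a, Heatr1, Nop2, Bop1, Nolc1, Ddx21, Mybbp1a and Srm are these 11. The cotransductions also shared 11 called genes, of which 5 were higher in both, 5 were lower with MLL-AF9 and higher with E2A-HLF, and Polr1c was the reverse. Between the MLL-AF9 cotransduction and the stable cells 5 genes fell in both and Ppan was called in opposite directions. Nop58, Nhp2, Noc4l, Wdr12, Rrs1 and Npm1 were called in none.

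A test of the difference between these effects, in 1 limma fit of all 12 libraries over 9475 genes, compares the experiments directly. The effect of PRDM16 was called more positive in the E2A-HLF cotransduction than in the stable cells for 27 of the 41 genes and more negative for none, at an unadjusted p under 0.05 as well, while 37.0% of all genes were called in either direction. The largest differences were 0.83 for Srm (SE 0.0790, limma, adjusted p 2.01e-05), 0.70 for Rrp12 and 0.63 for Utp20. Between the MLL-AF9 cotransduction and the stable cells 23 genes differed, 21 of them with the more positive effect in the cotransduction, against 64.0% of all genes called. Between the MLL-AF9 and the E2A-HLF cotransduction 27 differed, 9 with the more positive and 18 with the more negative effect under MLL-AF9, against 71.4% of all genes. Those last 2 counts are near the shares of all genes called. In this test directions were counted for the 41 genes only, so how they split over all genes is not known.

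**Figure D4:**
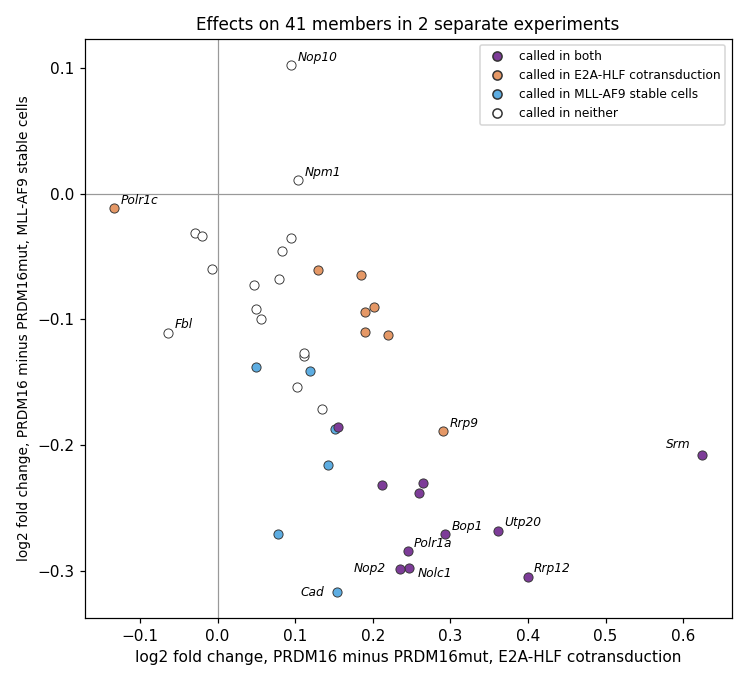
Log2 fold change of each of the 41 genes, PRDM16 minus PRDM16mut, in the E2A-HLF cotransduction (x axis) and in the MLL-AF9 stable cells (y axis), with colour for the calls. Most points lie to the right of 0 and below 0, with Srm at 0.62 and -0.21, and Polr1c, Npm1 and Nop10 are among those outside that corner.

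A further 100 genes of ribosome biogenesis outside the set were counted beside it. That list, too, was chosen with earlier results of these data known. With E2A-HLF, 39 of 98 tested rose and 1 fell, with a median log2 fold change of 0.13. Wdr46 and Esf1, factors of the small subunit in yeast, rose by 0.41 and 0.44, and the kinase Riok2 fell by 0.16. Of the same list, 11 of 98 fell in the stable cells and 1 rose, and the median log2 fold change was -0.07. Nat10, which acetylates small subunit RNA, fell by 0.30, the helicase Dhx37 fell by 0.32, and Znrd1, a polymerase I subunit, rose by 0.25. In the MLL-AF9 cotransduction 19 of 99 rose and 30 fell, with a median of -0.05. The processome proteins Imp3 and Rcl1 rose by 0.74 and 0.85 there, while Ttf1, which ends transcription by polymerase I, fell by 0.71 and Ebna1bp2, of the large subunit, fell by 0.58.

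Myc, which drives many of these genes, was lower with PRDM16 in the MLL-AF9 cotransduction, at 61.4 and 66.6 FPKM against 76.7 and 76.6 FPKM with PRDM16mut (log2 fold change -0.26, limma, adjusted p 0.0123). With E2A-HLF it was higher, at 183 and 178 FPKM against 161 and 163 FPKM (log2 fold change 0.16, limma, adjusted p 0.0308). The stable cells had 96.5 and 98.1 FPKM against 91.0 and 92.3 FPKM of Myc, which did not pass (log2 fold change 0.09, limma, adjusted p 0.126), with the groups apart and PRDM16 above. Mycn, its paralogue, had 19.9 and 19.4 FPKM with PRDM16 against 3.34 and 3.15 FPKM with PRDM16mut in the MLL-AF9 cotransduction, a log2 fold change of 2.28 (limma, adjusted p 6.96e-06). Mycn in the E2A-HLF cotransduction was at 29.8 and 29.7 against 31.6 and 31.6 FPKM, which did not pass, and in the stable cells all 4 libraries were below the filter.

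Mxd1, which pairs with Max and represses Myc targets, was called in all 3 experiments. It had 6.06 and 6.09 FPKM with PRDM16 against 25.1 and 25.1 FPKM with PRDM16mut in the MLL-AF9 cotransduction, 46.4 and 47.1 against 53.4 and 53.4 FPKM in the E2A-HLF cotransduction, and 12.4 and 12.9 against 10.3 and 10.6 FPKM in the stable cells. It fell by 1.88 in the MLL-AF9 cotransduction, fell by 0.19 in the E2A-HLF cotransduction and rose by 0.25 in the stable cells. Mxi1, of the same family, fell by 1.99 in the MLL-AF9 cotransduction and was not called elsewhere. Max, the common partner, rose there by 0.46. The part of these regulators in the values of the 41 genes was not tested.

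Genes of cell division and of blood lineages also moved in these libraries, and in bulk samples fewer cells of a type and less RNA per cell cannot be told apart. In the MLL-AF9 cotransduction all 25 listed genes of cell division fell, and their summed FPKM was 792 and 793 with PRDM16 against 1345 and 1362 with PRDM16mut. With E2A-HLF 2 rose and 2 fell, with a median log2 fold change of 0.06, and in the stable cells 1 rose and none fell, with a median of 0.04. In the stable cells 21 of the 25 cell division genes had a positive log2 fold change, against 5918 of all 10580 genes tested. Of the 25, 24 did not pass the test. The part of cell division in the values of the ribosome biogenesis genes, including the 17 that fell there, was not tested.

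All 10 neutrophil granule genes fell in the MLL-AF9 cotransduction, where their sum was 1426 and 1359 FPKM with PRDM16 against 54424 and 53343 FPKM with PRDM16mut. With E2A-HLF 7 of 8 rose, with a sum of 2098 and 1998 against 676 and 691 FPKM, and in the stable cells 2 of 10 fell, with a sum of 16157 and 16279 against 15482 and 16077 FPKM. Mast cell, basophil and eosinophil genes summed to 239 and 241 against 2929 and 2893 FPKM in the MLL-AF9 cotransduction, to 190.5 and 186 against 141 and 145 FPKM in the E2A-HLF cotransduction, and to 13.3 and 13.2 against 12.4 and 13.1 FPKM in the stable cells. Of these genes 1 rose and 9 fell of 10, 6 rose and 1 fell of 7, and none of 3 was called.

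Monocyte and macrophage genes summed to 5163 and 5228 against 2146 and 2160.1 FPKM in the MLL-AF9 cotransduction, to 385 and 358 against 99.6 and 104 FPKM in the E2A-HLF cotransduction, and to 215 and 222 against 189.6 and 189 FPKM in the stable cells. Here 5 rose and 1 fell of 7, 3 rose and 2 fell of 5, and 1 rose of 8, and Ly86 was at 0 in the 4 libraries of the MLL-AF9 cotransduction. Erythroid genes summed to 811 and 393 against 155 and 64.9 FPKM in the MLL-AF9 cotransduction, where 5 of 5 rose. Their sum with E2A-HLF was 312 and 121 against 491 and 254 FPKM, lower on average with PRDM16 but overlapping, while 2 of 6 rose and none fell by limma's test. In the stable cells none passed the filter, and the sum was 0.672 and 0.765 against 1.44 and 0.910 FPKM. The part of these lineages in the values of the 41 genes was not tested.

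Fold changes followed transcript length and GC content in 2 of the tables. Over all genes the rank correlation (Spearman's rho, across genes, which are not independent replicates) of fold change with length was -0.20 in the MLL-AF9 cotransduction, 0.04 with E2A-HLF and -0.23 in the stable cells, and with GC content it was 0.24, 0.01 and -0.16. Replicates of 1 group also differed along these measures, in some groups by more than the fold changes did. The log2 ratio of replicate 2 to replicate 1 had a rank correlation of 0.63 with GC content among MLL-AF9 cotransduced cells with PRDM16. With length it was 0.43 and -0.38 among E2A-HLF cells with PRDM16 and with PRDM16mut. In the other experiments the replicate ratio followed length less than the fold change did. There it was 0.059 with PRDM16 and 0.18 with PRDM16mut in the MLL-AF9 cotransduction, and -0.002 and -0.078 in the stable cells. Over the 41 genes, whose transcripts run from 1042 to 10012 bases, the rank correlation of fold change with length was -0.45, 0.29 and -0.44. With both trends removed 24 genes were higher and 1 lower in the E2A-HLF cotransduction, where the median log2 fold change was 0.12, and 0 were higher and 19 lower in the stable cells, with a median of -0.14.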

How the data were processed

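RNA was measured in 12 mouse libraries, 6 groups of 2. The authors deposited FPKM (fragments scaled to transcript length and to mapped fragments) per gene symbol, in 3 tables of 23309, 23235 and 23235 entries, 1 per experiment. Per the submitters' processing notes, Bowtie2 2.0.0.7, TopHat2 2.0.3, Cuffdiff and the mm9 build were used, and the annotation, strand setting and scaling are not given there or in the labels. Tables were treated as normalized separately. Depth is unknown, and no counting interval was computed. Low values of replicates stood in whole-number ratios up to 6 (tolerance 0.5%) in 65.4% to 74.3% of cases, which gives relative depth only.

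Each table was fitted alone with limma 3.58.1 in R 4.3.3 on log2(FPKM + 1), with a variance trend, two-sided, PRDM16 minus PRDM16mut, for genes at FPKM 1 or above in 2 or more of the 4 libraries. On this scale the fold changes of low genes are understated. All 41 genes passed this filter in every table. A call is a Benjamini-Hochberg adjusted p under 0.05 over all genes tested, and the smallest exact permutation p of 2 against 2 is 0.333. Symbols that a spreadsheet had turned into dates (27, 25 and 25) were tested but not named. Differences between experiments are contrasts of contrasts in 1 fit.

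The genes, the role groups and the lists of other ribosome biogenesis genes, Myc network, cell division and lineage markers were chosen with earlier results of these data known. Values in every library are given for genes called alike in all 3 experiments (none), up to 8 called in opposite directions by largest gap, the 4 largest and 4 smallest log2 fold changes among called genes without overlap in each experiment, the 3 largest called differences per contrast, and the 3 most and 3 least abundant, 17 genes in all. Myc network genes could be named freely, and of the other ribosome biogenesis genes up to 2 per direction. Further genes were named after their values were seen. Alternatives were a pseudocount of 0.1, no filter, a filter at FPKM 5, quantile normalization, median-ratio scaling, no variance trend, a spread shared over 12 libraries, replicate as a block, each library left out, and, added after seeing the data, removal of the trend on transcript length and GC content (loess, span 0.3, GENCODE M21 transcripts). Simulated data had 100 genes changed by a log2 of 1 and 100 by 0.5 in each table. A log2 change of 1 was recovered for 89%, 79% and 96% of changed genes (MLL-AF9 cotransduction, E2A-HLF cotransduction, stable cells). A change of 0.5 was recovered for 46%, 60% and 75%. In the real tables more genes were called (7698, 4822 and 673), so the adjusted cut-off differed. These shares are therefore not the power of the reported tests, and smaller changes were not simulated.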

Additional observations from a re-analysis of the deposited data

Results flagged for a closer look

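The effect of PRDM16 differed between experiments by a direct test (limma, contrast of contrasts) for some of the ribosome biogenesis genes. Between the MLL-AF9 and the E2A-HLF cotransduction it differed for 27 of 41, against 71.4% of all genes tested, and the largest differences of log2 fold changes, MLL-AF9 minus E2A-HLF, were -0.81 for Rrp12, 0.79 for Polr1c and 0.73 for Polr1e. Between the MLL-AF9 cotransduction and the stable cells it differed for 23, against 64.0% of all genes, with 0.89 for Polr1e, 0.69 for Rrp9 and 0.67 for Polr1c. The E2A-HLF cotransduction differed from the stable cells for 27, against 37.0% of all genes, with 0.83 for Srm, 0.70 for Rrp12 and 0.63 for Utp20. The first 2 counts are near the shares of all genes. Without 1 library the 3 counts lay between 24 and 28, between 19 and 32, and between 23 and 29.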

How the results depend on the processing

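In the MLL-AF9 cotransduction 4 genes fell without the filter, and the median log2 fold change was -0.0018 with quantile normalization and -0.014 with length and GC trend removed. Without 1 library 7 to 19 rose, 1 to 17 fell and the median lay between -0.0038 and 0.032. In the E2A-HLF cotransduction 9 rose without the filter, 14 rose and 3 fell with quantile normalization, where the median was 0.075, and 0 fell with no variance trend or with the shared spread. Without 1 library 0 fell, 12 to 16 rose and the median lay between 0.098 and 0.15. In the stable cells 0 fell without the filter, 4 with no variance trend, 8 with the shared spread, and 0 to 4 without 1 library. The cause was not tested, except that the fits without the filter adjust over more genes and those without 1 library hold fewer libraries, the lone one being assumed to vary like the rest. Under quantile normalization and median-ratio scaling 22 fell each, and the higher share of all calls in the stable cells was 51.6% and 53.9%, against 66.0%. Signs turned, at values that pass no test unless stated, in the MLL-AF9 cotransduction for Srm (-0.066 with quantile normalization, -0.34 and called with length and GC trend removed), Polr1a (0.065) and Nop2 (-0.028, both with that trend removed), in the E2A-HLF cotransduction for Gnl3 (-0.037 with quantile normalization), and in the stable cells for Npm1 (-0.041 with quantile normalization, -0.0032 with median-ratio scaling, -0.059 with the trend removed). Without 1 library signs turned for Nop2 (-0.0038 to 0.17), Bop1 (-0.21 to 0.028), Npm1 (-0.018 to 0.18) and Srm (-0.039 to 0.13) in the MLL-AF9 cotransduction, Nob1 (-0.055 to 0.041) in the E2A-HLF cotransduction, and Polr1c (-0.094 to 0.071) and Taf1d (-0.093 to 0.0026) in the stable cells. The labels do not say that replicate numbers pair libraries, and deviations of same-numbered libraries correlated at 0.067, 0.29 and 0.32. With the replicate block 13 rose and 8 fell, 13 rose and 0 fell, and 0 rose and 16 fell in the 3 experiments. The other 90 counts and medians from settings that kept all libraries stayed within 1.5 times, or the replicate spread, of those reported.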
